A study of Populus davidiana with 6 samples.

Results

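The 300 longest genes with a reference transcript and a measurable level in aspen leaves were examined, out of 40537 genes listed for leaf RNA of Populus davidiana, the Korean aspen. A gene was eligible when its summed FPKM (fragments per kilobase of transcript, scaled to the mapped fragments of the library and added over all its listed transcripts) averaged at least 1 over the 6 libraries and when at least 1 of its transcripts was marked KNOWN, that is, came from the reference annotation. Length was the genomic span, introns included, of the longest known transcript, and the 300 longest of 20917 eligible genes were taken. The members were thus chosen by annotated length and by mean level over all 6 libraries, which are given as description only. The change after drying was not used to choose them.

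All leaves came from seedlings of the cultivar Seogwang9, labelled drought tolerant, regenerated from internode cultures on MS medium with sucrose and the auxin naphthalene acetic acid and aged about 6 weeks. The control group has 3 libraries. The air-dried group has 3 libraries from plants pulled out of the medium, rinsed with sterile water and exposed to open air for about 10 minutes. Whether controls were also uprooted and rinsed is not stated. Nor is it stated that the triplicate leaves were taken from different plants, so p-values reflect only the variation among these libraries, and that variation may be technical. Leaf identity was not checked against marker genes, because the files leave the gene name column empty and no table used here pairs the accessions with names or functions.

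A plant gene spans its exons and the introns between them, and RNA polymerase II copies both. Splicing then removes the introns, and a gene with many introns can give several isoforms that differ in the exons they keep. Leaves that lose water build up abscisic acid, a hormone that closes stomata and changes the transcription of many genes. No role is given for any gene below, since none is annotated in the files.

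The members' longest known transcripts spanned 11363 to 38036 bp with a median of 13110 bp, against a median of 3074 bp over all eligible genes. The limit fell on a tie: the last gene inside and the first outside, both on chromosome 8, each spanned 11363 bp, with mean levels of 18.7 and 3.71 FPKM. Members' mean levels ran from 1.10 to 322 FPKM with a median of 14.8 FPKM, and 32 members lay under 5 FPKM. No member was listed at 0 in any library. On the numbered chromosomes lay 296 members, 37 of them on chromosome 1, 27 on chromosome 2 and 22 each on chromosomes 6 and 10, and 4 lay on scaffolds. The plus strand held 141 and the minus strand 159. In 38 members the known transcripts carried accessions of more than 1 reference locus (12.7%, against 10.1% of eligible genes), so that their sums mix neighbouring loci. Another listed gene overlapped 41 members, on the other strand in 32, and no source used here gives the strand setting of the quantification. Coordinates are those deposited; the genome build and the species of the reference annotation are not given in the files or labels, so spans in the sampled trees may differ.

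The library medians shifted more for these genes than for all tested genes. The median FPKM of the members was 13.4, 14.7 and 15.8 in controls 1, 2 and 3, and 14.5, 14 and 16.5 in air-dried 1, 2 and 3. Control 3 and air-dried 3 were thus the high libraries, and the groups overlapped. Relative to its group mean, a library's median deviation on the log2(FPKM + 1) scale ran from -0.088 to 0.12 over the members and from -0.039 to 0.032 over all tested genes. By transcript levels the libraries also fell into 2 sets that cross the groups and that the labels do not name: controls 1 and 2 with air-dried 1 (set A), and control 3 with air-dried 2 and 3 (set B). Libraries of one set had rank correlations over transcripts of 0.817 to 0.863, and libraries of different sets 0.733 to 0.773. The median set difference (B minus A) was 0.091 on the log2 scale over the members and 0.010 over all tested genes. No member passed the test of that difference (limma), against 0.989% of all tested genes. At an unadjusted p under 0.05 (limma) there were 17 members, all of them higher in set B. No share over all tested genes at that threshold is given, so this count and its direction are not read as a result about the members.

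For most of the longest genes the change after drying lay within a narrow margin. Of the 300 members 6 rose and 6 fell, together 4% of them, where 13.0% of the 22356 tested genes and 13.6% of the eligible genes were called. Among all tested genes 5.60% were called higher and 7.44% lower, and among eligible genes 5.85% and 7.79%, against 2% of members in each direction. Calls are from limma on log2(FPKM + 1) with a Benjamini-Hochberg adjusted p under 0.05 over all tested genes. On the log2(FPKM + 1) scale 1 member changed at least 2-fold (0.333%, against 5.14% of tested and 3.63% of eligible genes). On that scale 4 changed at least 1.5-fold (1.33%, against 12.8% of tested and 10.7% of eligible genes), and all 4 were called. In bulk leaf RNA a change in RNA per cell and a change in the number of cells of a type cannot be told apart.

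The size of the changes was small in the members that did not pass the test as well. Log2 changes of the 288 uncalled members ran from -0.42 to 0.47. Over all 300 the median absolute log2 change was 0.11, against 0.17 over all tested genes, and the changes at the 5th and 95th percentiles were -0.25 and 0.27 against -0.73 and 0.61. Eligible genes had a median absolute change of 0.17 and percentiles of -0.65 and 0.55. The 95% interval of the change stayed inside a 2-fold change in both directions for 297 members (99%, against 84.0% of tested genes) and inside 1.5-fold for 280 (93.3% against 61.2%). Over eligible genes these shares were 88.1% and 64.9%. The median residual SD between replicates was 0.125 in the members, 0.143 in all tested genes and 0.137 in eligible genes. Replicates of the members thus varied slightly less than those of all tested genes together. They did not vary less than those of the 300 genes next in length, with a median of 0.118. Some 65.0% of members had a positive change, against 51.4% of all tested genes and 52.0% of eligible genes, with a median of 0.053 on the log2 scale against 0.0080 over all tested genes. That median is smaller than the spread of the members' library medians between replicates (SD 0.099), was -0.0085 without air-dried 3 and 0.00063 without control 1, and fell to 0.019 with the library set as a term.

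**Figure D1:**
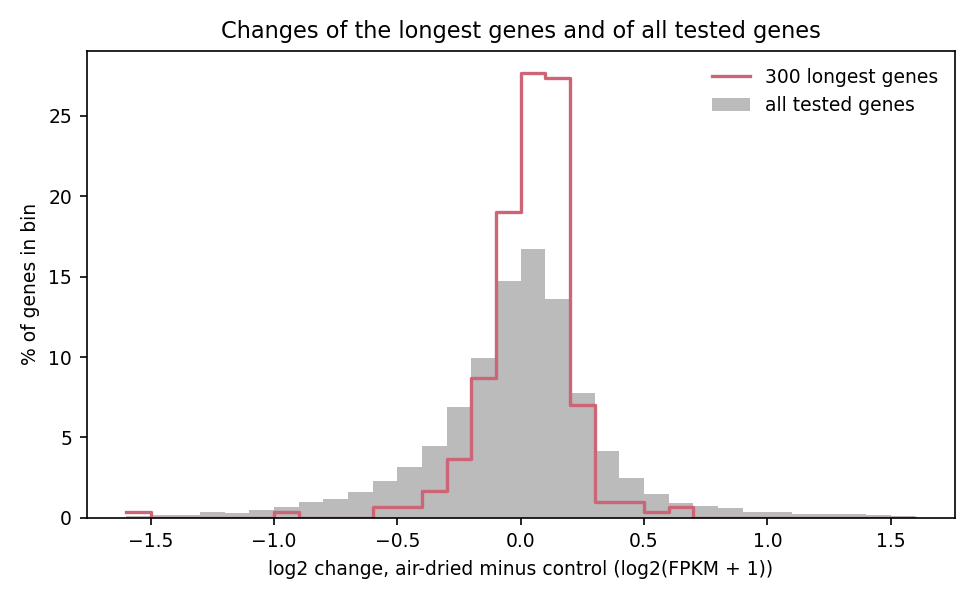
Distribution of log2 changes (air-dried minus control, log2(FPKM + 1) scale, bins of 0.1) in the 300 longest genes (line) and in all 22356 tested genes (grey bars), as % of genes per bin; 473 tested genes and no member lie beyond the plotted range of 1.6 in either direction. The members crowd closer to 0, with a median absolute change of 0.11 against 0.17.

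In 37 members the lowest air-dried value exceeded the highest control value and in 18 the reverse held, together 18.3% where 32.7% of tested and 34.0% of eligible genes had groups that did not overlap. By direction these were 12.3% and 6% of members, against 15.9% and 16.8% of tested genes. Positive changes thus outnumbered negative ones among members with separated groups while the called genes were evenly split, and 31 of the 37 and 12 of the 18 were not called. At an unadjusted p under 0.05 there were 18 members higher and 16 lower (11.3% of members against 27.1% of tested genes).

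The 6 members that rose did so by 1.30-fold to 1.66-fold in FPKM. The largest rise belonged to POPTR_0014s14510.r1, on the plus strand of chromosome 14 (10625792 to 10637268; 11477 bp), with 8.74, 7.30 and 7.65 FPKM in the controls and 12.4, 12.9 and 14.1 FPKM in the air-dried libraries. Its groups were well apart, with means of 7.90 ± 0.756 and 13.1 ± 0.836 FPKM (SD, n = 3 each) and a log2 change of 0.67 (SE 0.091, limma adjusted p = 0.00719). Its summed FPKM lay almost wholly in 1 assembled transcript, which held 93.3% of the sum and had the same outer span as the known transcript. POPTR_0006s07240.r1, on the minus strand of chromosome 6 (5183981 to 5199186; 15206 bp), was the most abundant of the called members. It had 75.7, 81.3 and 101 FPKM in the controls and 143, 118 and 149 FPKM after drying, a log2 change of 0.67 (SE 0.15, limma adjusted p = 0.0339). Control 3 was its highest control and air-dried 2 its lowest treated library, the log2 change came to 0.86 in set A but 0.39 in set B, and a fit that includes the library set gave a limma adjusted p of 0.0574.

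The other 4 rises were smaller and are given by position. The gene on chromosome 1 at 31173796 to 31186137 (12342 bp) had 6.12, 7.46 and 7.94 FPKM in the controls and 10.4, 11.8 and 10.8 FPKM after drying (log2 change 0.56, SE 0.11, limma adjusted p = 0.0226). It lists 15 transcripts, 4 of them known, and its leading one, a known transcript of 11946 bp, had 4.02, 0.00299 and 2.19 FPKM in the controls and 7.31, 6.67 and 4.82 FPKM after drying. Chromosome 6 held a gene at 9385365 to 9401212 (15848 bp) with 14.2, 13.9 and 14.2 FPKM in the controls and 17.1, 20.9 and 20.2 FPKM after drying (log2 change 0.43, SE 0.090, limma adjusted p = 0.0302). Its controls were nearly identical, and its sum merges 3 reference loci and overlaps 1 other listed gene. Levels of a chromosome 15 gene at 13126678 to 13139021 (12344 bp) were 21.1, 18.9 and 17.9 FPKM in the controls and 27.1, 24.9 and 25.6 FPKM after drying (log2 change 0.41, SE 0.084, limma adjusted p = 0.0285). The gene on chromosome 1 at 11947907 to 11970634, the tenth longest at 22728 bp, had 6.82, 7.17 and 8.22 FPKM in the controls and 9.46, 9.90 and 9.58 FPKM after drying (log2 change 0.34, SE 0.085). It merges 2 loci, sat on the edge of the threshold (limma adjusted p = 0.0499) and missed it once the library set was fitted (limma adjusted p = 0.0790). The leading transcript of this gene was an assembled one of 6399 bp, covering 28.2% of the length and holding 36.0% of the sum. Known transcripts held 1.14% of that sum.

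Falls were larger than rises in the most changed genes. POPTR_0018s06370.r1, on the plus strand of chromosome 18 (6187049 to 6198591; 11543 bp), had 15.3, 17.8 and 17.7 FPKM in the controls and 5.37, 4.57 and 6.11 FPKM after drying. This was the largest change among the members: means went from 17.0 ± 1.43 to 5.35 ± 0.769 FPKM (SD, n = 3 each), a log2 change of -1.50 (SE 0.12, limma adjusted p = 0.00106). An assembled transcript of 4692 bp, covering 40.6% of the length, held 62.2% of the sum and went from a mean of 10.8 to 3.05 FPKM, and the full-length known transcript went from 5.86 to 2.22 FPKM. POPTR_0005s27320.r1, on the minus strand of chromosome 5 (25020834 to 25034234; 13401 bp), had 2.55, 2.66 and 2.78 FPKM in the controls and 0.856, 0.699 and 1.09 FPKM after drying. Its level fell to 0.331 of the control mean, and the log2 change of -0.97 (SE 0.12, limma adjusted p = 0.00478) understates this because the values lie near the pseudocount. Known transcripts held 97.6% of its sum.

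The other 4 falls left levels at 0.573 to 0.756 of the control mean. The gene on chromosome 11 at 12943915 to 12956768 (12854 bp) had 15.9, 16.8 and 17.6 FPKM in the controls and 9.67, 10.8 and 12.4 FPKM after drying (log2 change -0.58, SE 0.10, limma adjusted p = 0.0171). Its known transcript, which held 50.3% of the sum, had 9.09, 3.53 and 10.2 FPKM in the controls and 3.91, 6.96 and 8.12 FPKM after drying, so that its groups overlapped. A more abundant gene, on chromosome 2 at 6625000 to 6638873 (13874 bp), had 60.4, 71.7 and 60.3 FPKM in the controls and 45.0, 40.3 and 47.1 FPKM after drying (log2 change -0.53, SE 0.10, limma adjusted p = 0.0239). An assembled transcript of 7929 bp held 74.3% of this sum. On chromosome 5, the gene at 13199512 to 13211002 (11491 bp) was low throughout, with 1.88, 1.94 and 2.21 FPKM in the controls and 1.15, 1.07 and 1.23 FPKM after drying (log2 change -0.48, SE 0.10, limma adjusted p = 0.0329). Fitted together with the library set, its limma adjusted p was 0.0559. The gene on chromosome 7 at 4149506 to 4160952 (11447 bp) had very even controls of 22, 21.9 and 22.2 FPKM and treated values of 16.9, 15.7 and 17.4 FPKM (log2 change -0.38, SE 0.066, limma adjusted p = 0.0162). An assembled transcript held 88.2% of its sum, while its known transcript had a mean of 1.57 FPKM in the controls and 1.74 FPKM after drying.

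**Figure D2:**
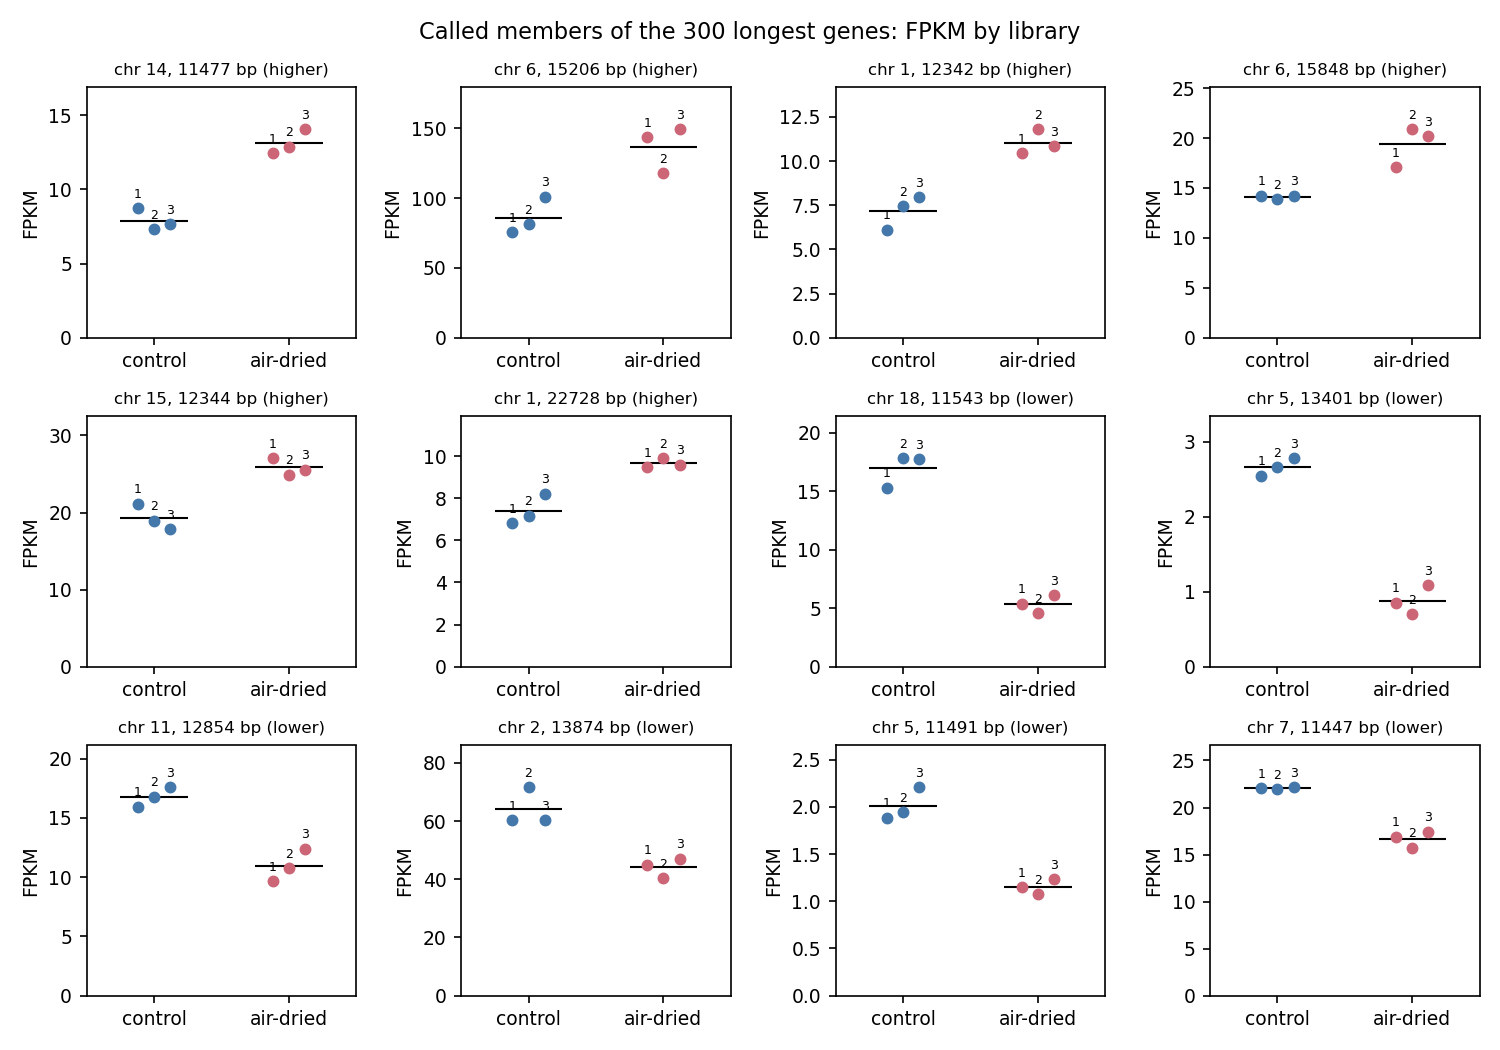
FPKM of the 12 called members in each library (points numbered by replicate, blue control, red air-dried; black line, group mean; linear axes from 0), with chromosome and length above each panel. In all 12 the groups do not overlap; the chromosome 18 gene of 11543 bp changed most, from a mean of 17.0 to 5.35 FPKM.

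With a term for library set added, 4 members rose and 5 fell, all of them among the 12, while 12.3% of tested genes were called. In neither set taken alone was a member called (limma, pooled spread; 13 and 11 members at an unadjusted p under 0.05), where 2.33% and 2.04% of tested genes were, and in each set 1 of the groups is a single library. All 12 kept their direction within both sets. Leaving out a library brought the number called higher to 2 without control 1, control 2, air-dried 1 or air-dried 2, and to 1 without air-dried 3, and the number called lower to 2 without control 1 or control 2 and to 3 without control 3, air-dried 1 or air-dried 2; between 6.62% and 8.91% of tested genes were called in these smaller fits. POPTR_0014s14510.r1, POPTR_0018s06370.r1 and POPTR_0005s27320.r1 were called in all 6 of them. The other called members kept the call in at most 2 of the 6, POPTR_0006s07240.r1 in 2. The low chromosome 5 gene at 13199512 to 13211002 was called in none.

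The 6 longest members of all did not pass the test. The longest, on chromosome 17 (5042235 to 5080270; 38036 bp), had 9.54, 9.41 and 10.4 FPKM in the controls and 11.1, 10.5 and 12 FPKM after drying (log2 change 0.17, 95% interval -0.020 to 0.37). It was the one of the 6 whose groups did not overlap. The next, on chromosome 8 (6205928 to 6239544; 33617 bp), had 36.7, 44.6 and 53.5 FPKM in the controls and 44.6, 45.1 and 57.3 FPKM after drying, with replicate 3 highest in both groups (log2 change 0.13, 95% interval -0.28 to 0.54). The gene on chromosome 4 (21922896 to 21951315; 28420 bp) had 10.5, 12.1 and 15.1 FPKM against 14.5, 13.4 and 16.5 FPKM (log2 change 0.23, 95% interval -0.13 to 0.59). On chromosome 2 (8193382 to 8221078; 27697 bp) values were 13.0, 15.8 and 16.5 FPKM against 13.4, 12.6 and 16.8 FPKM, overlapping throughout (log2 change -0.079, 95% interval -0.41 to 0.26). A second gene there (11204206 to 11229630; 25425 bp) had 4.30, 5.69 and 5.19 FPKM against 3.94, 3.60 and 4.72 FPKM (log2 change -0.25, 95% interval -0.57 to 0.065). The sixth, on chromosome 5 (8434609 to 8459016; 24408 bp), had the smallest change of the 6, with 18.6, 18.5 and 19.2 FPKM against 18.7, 17.9 and 20.7 FPKM (log2 change 0.020, 95% interval -0.17 to 0.21).

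In none of these 6 did the annotated full-length transcript carry the level: known transcripts held under 1% of the sum in all 6. The leading transcript was an assembled one whose span covered between 7.37% of the annotated length (2478 bp, in the chromosome 8 gene) and 92.6%, and in 4 of the 6 it covered under 50%. Whether these shorter models are separate genes, truncated assemblies or true isoforms in Populus davidiana was not tested.

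The same held for many of the other members. Known transcripts held a median of 8.27% of a member's summed FPKM, against 70.4% over eligible genes, and under 1% in 100 members (33.3% against 8.14%). They held more than 50% in 67 members (22.3% against 61.9%). Members listed more transcripts, with a median of 9 against 3, and 2857 of their 3303 transcripts were assembled. Among genes with more than 1 transcript, which are not matched to the members on transcript number, the medians of the known share were 7.80% for 298 members and 51.6% for 16293 eligible genes. An assembled transcript led in 209 members (69.7%, against 34.6% of eligible genes), each with a suffix j that the files do not explain. In Cuffcompare, a companion program of Cufflinks, the code j marks a transcript that shares a splice junction with a reference one. The leading transcript covered at least 90% of the annotated length in 197 members (65.7% against 91.4%) and under 50% in 60, while 3.11% of eligible genes had so short a leading transcript. The member medians for known transcripts were between 4.56% and 9.26% in the 6 libraries, and the groups overlapped.

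**Figure D3:**
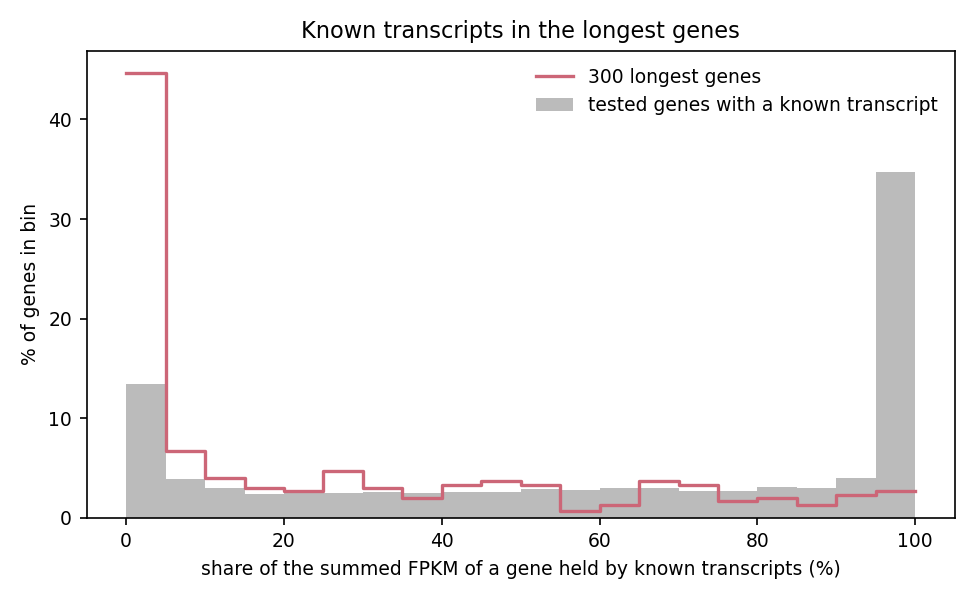
Share of the summed FPKM of a gene that its known transcripts held over the 6 libraries (bins of 5 percentage points, as % of genes) in the 300 longest genes (line) and in the 20917 eligible genes (grey bars). The lowest bin holds 44.7% of members against 13.4% of eligible genes, and the highest 2.67% against 34.7%.

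The leading transcript rarely differed by group. Of 298 members that list several transcripts, 175 (58.7%) were led by a single one throughout the 6 libraries, against 62.4% of tested genes with more than 1 transcript. In 1 member a known transcript led in every control and an assembled one in every air-dried library (0.336%, against 0.340%), while 6 members were split in this way between library sets A and B (2.01% against 2.61%). That member, on chromosome 19 (435214 to 447587), had 8.11, 10.6 and 8.60 FPKM of its known transcript in the controls and 7.10, 5.84 and 6.97 FPKM after drying. Its assembled transcript, 12409 bp against 12374 bp, had 5.97, 7.34 and 6.73 FPKM in the controls and 7.24, 7.68 and 7.76 FPKM after drying. The lead in air-dried 1 was thus a small one, and the sum of the gene did not pass the test (log2 change -0.044, limma adjusted p = 0.827).

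At the level of single transcripts, 2 of 823 member transcripts with a mean of at least 1 FPKM were called (0.243%, against 1.73% of 41577 tested transcripts). Both belong to POPTR_0018s06370.r1 and both fell, and no member transcript rose (limma; 28 higher and 22 lower at an unadjusted p under 0.05). Of 168 known member transcripts tested 1 was called, where 3.19% of all known ones were, and of 655 assembled ones also 1, where 0.564% were. Sums of known transcripts reached 1 FPKM in 153 members, of which 3 fell and none rose (limma; 13 lower and 1 higher at an unadjusted p under 0.05), against 8.40% of genes called with such sums. Besides POPTR_0018s06370.r1 and POPTR_0005s27320.r1 this was a gene on chromosome 2 (21214049 to 21229660; 15612 bp), chosen after its values were seen. Its known transcripts had 2.26, 2.79 and 1.49 FPKM in the controls and 0.0255, 0.0285 and 0.0301 FPKM after drying (log2 change -1.61, limma adjusted p = 0.0120). The sum over all 10 transcripts of this gene, which merges 2 loci, was 17.9, 21.0 and 24.7 FPKM in the controls and 22.5, 22.4 and 27.5 FPKM after drying. The fall of its known transcripts is therefore not seen in the gene sum (limma adjusted p = 0.481), of which they held 4.88%. For the counts at an unadjusted p in this paragraph, no share over all transcripts or genes is given. Their split by direction is therefore not read as a result about the members.

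Among the members, length and change showed no simple order. In the 100 longest, 3 rose and none fell (limma); in the next 100, 3 fell and none rose; and in the last 100, 3 rose and 3 fell. The longest gene that fell ranked 116. Median log2 changes were 0.072, 0.020 and 0.053 in these classes and median absolute changes 0.10, 0.11 and 0.11, so the classes were alike in size of change. By level, 2 of 32 members under 5 FPKM were called, 7 of 170 between 5 and 20, 1 of 84 between 20 and 50, and 2 of 14 at 50 FPKM or more. Among eligible genes the shares called in these level classes were 14%, 13.5%, 13.0% and 14.2%. Of the 100 members in which known transcripts held under 1% of the sum 1 was called, against 6 of 133 with 1% to 50% and 5 of 67 with 50% or more. For eligible genes these shares were 8.04%, 10.4% and 16.0%. Merged loci gave 2 calls in 38 members and single loci 10 in 262, where 10.9% and 14% of eligible genes were called. There were 6 pairs of members that are neighbours among tested genes, with log2 changes from -0.37 to 0.30. No gene of these pairs was called, where 4% of members and 13.0% of tested genes were. The pairs are too few to read a result from that.

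**Figure D4:**
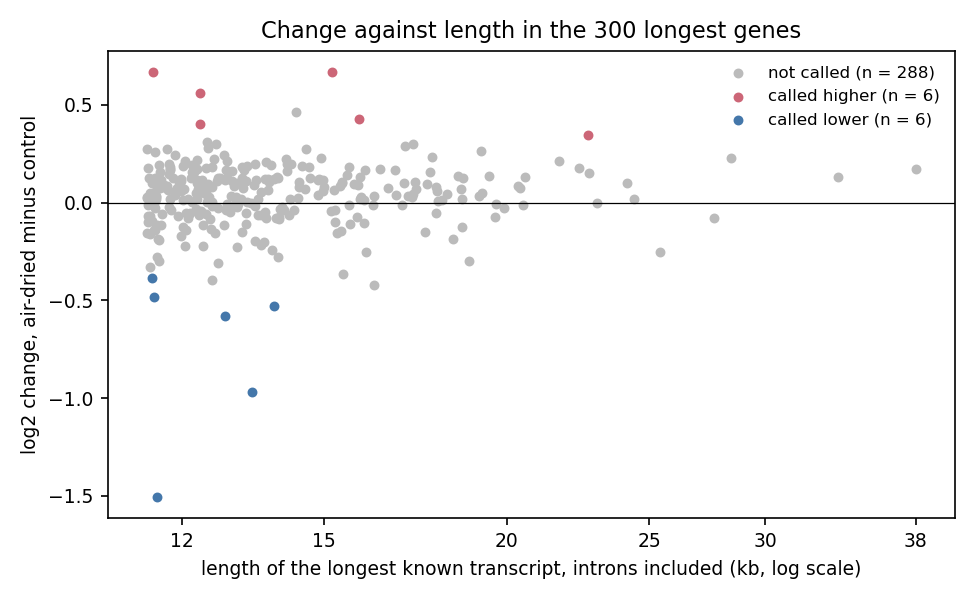
Log2 change (air-dried minus control) against length of the longest known transcript (kb, log scale) for the 300 members; grey points were not called, red were called higher (n = 6) and blue lower (n = 6). Above 22728 bp, the length of the member ranked 10, no member was called, and the 6 falls all lie at 13874 bp or below, from rank 116 on. Both limits were read from the called genes themselves, and few members lie above the first, so they set no limit of length.

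The 3 most abundant members, described for their level, include POPTR_0006s07240.r1, which rose. The highest, on chromosome 16 (1970232 to 1986213), had 305, 326 and 371 FPKM in the controls and 285, 307 and 340 FPKM after drying (log2 change -0.10, 95% interval -0.39 to 0.19). A chromosome 6 gene (2421560 to 2437592) had 205, 234 and 271 FPKM against 179, 192 and 224 FPKM (log2 change -0.25, 95% interval -0.59 to 0.092). In both genes replicate 3 was highest in each group and the groups overlapped.

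Across all eligible genes a larger share was called among shorter genes. It was 4% in the 300 longest, 3.67% in the next 300 by length, 5.33% in the next 600, 8.25% in the next 1200, 10.2% in the next 2400, 12.3% in the next 4800 and 16.5% in the 11317 shortest. The 300 genes next in length, from 9666 to 11363 bp, also had a median absolute log2 change of 0.11. Median levels were 14.8 FPKM in the members and 11.2 to 14.1 FPKM in the other classes. Median residual SDs were 0.125 in the members, 0.163 in the shortest class and 0.113 to 0.120 in the others. The part of level, of spread and of the share of known transcripts in this gradient was not tested. Length here is that of a single annotated transcript. With length taken as the outer span of all transcripts of a gene, the 300 longest shared 6 genes with the members, 231 of them merged several loci, their longest known transcripts had a median of 3495 bp, and 43 (14.3%) were called, 18 higher and 25 lower.

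**Figure D5:**
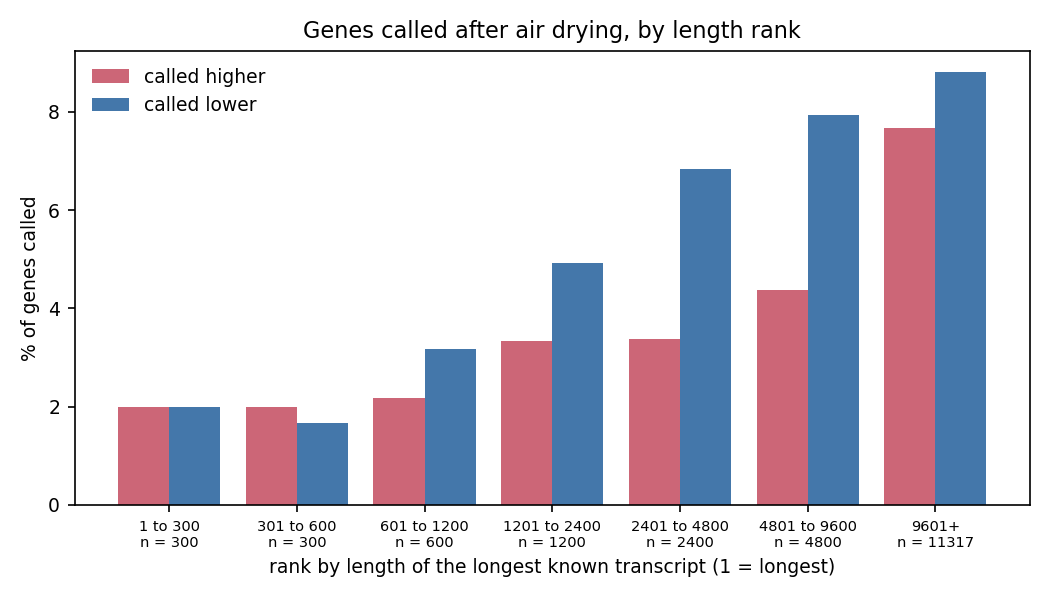
Share of eligible genes called higher (red) and lower (blue) after air drying (limma, Benjamini-Hochberg adjusted p under 0.05; % of genes, axis from 0) in classes of length rank, 1 being the longest; n is the number of genes in a class. The members, ranks 1 to 300, stand at 2% in each direction, and the 11317 shortest genes at 7.67% higher and 8.80% lower.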

How the data were processed

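Values are FPKM of single transcripts, as the authors deposited them and per the file headers. The submitters' processing notes list FastQC, TopHat and Cufflinks and no versions, and poly(A) libraries were read as 100 bp pairs, per the labels' protocols. All 6 files list the same 112919 transcripts. From these, gene sums of FPKM were formed, the 22356 genes averaging 1 FPKM or more were tested, and groups were compared on log2(FPKM + 1) with limma 3.58.1 (lmFit, eBayes with a trend) under R 4.3.3. Tests were two-sided and adjusted over all tested genes by the Benjamini-Hochberg method. Fold changes on this scale understate those of low genes. Eligible genes had at least 1 known transcript (20917).

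The members, lists and tests were chosen with earlier results of these data known, the library sets included. Genes described singly were the 6 longest members and up to 10 called members in each direction with groups that do not overlap; 4 further members (the leading transcript that differed by group, the third fall in known sums, and the 2 with the highest level) were chosen after their values were seen. For each direction 2 accessions are printed, since no table used here names them, and for the same reason lists of genes by function were not applied and no sequence is shown. Read counts are not given, so absolute depth is unknown and no counting interval is given. Steps in low FPKM values gave depths relative to control 1 of 1.02 and 1.33 for controls 2 and 3, and of 0.891, 1.07 and 0.961 for air-dried 1, 2 and 3. Same-numbered libraries were not treated as pairs.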

Additional observations from a re-analysis of the deposited data

How the results depend on the processing

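Over all alternative settings the 12 called members gave 219 values, of which 216 kept the direction and 124 also the call. The 3 reversals came from known transcripts: the chromosome 7 gene changed by 0.12 with sums of known transcripts and with its longest known transcript (limma adjusted p = 0.834 and 0.837), and the chromosome 1 gene of 12342 bp by -1.42 with its longest known transcript (limma adjusted p = 0.273); the cause was not tested. Pseudocounts of 0.5 and 0.1 gave 6 members higher and 6 lower (13.0% and 12.9% of all genes tested in those fits were called), median scaling 6 and 8 (13.7%), quantile normalization 5 and 7 (12.3%), no trend 5 and 6 (13.2%), no filter 5 and 6 (9.85%), and a mean of at least 5 FPKM 5 and 4 among 268 members (12.6%). Members without overlap numbered 55 in the main fit, 70 with median scaling and 59 with quantile normalization. Sums of known transcripts gave 0 and 3 among 153 members (8.40%), with 25 members whose groups did not overlap, and the longest known transcript 0 and 2 among 129 (8.46% of all genes so tested; limma, 1 higher and 11 lower at an unadjusted p under 0.05), with 21, from fewer members. Within set A and set B 0 and 0 were called (limma; 13 and 11 at an unadjusted p under 0.05), and 209 and 160 members did not overlap, since fewer libraries were compared. The 150 longest genes gave 3 higher, 2 lower and 24 without overlap, the 600 longest 12, 11 and 126, and length as the outer span of all transcripts 18, 25 and 100, in lists of other genes. Over all tested genes 13.0% were called and 32.7% were without overlap. Members with a single reference locus, an alternative chosen after seeing the data, gave 4 and 6. Without single libraries 1 to 5 members were higher, 2 to 4 lower and 65 to 108 without overlap, and the median log2 change ran from -0.0085 to 0.098. For fits with scaled or normalized values, with fewer libraries or with known transcripts, no share over all genes is given for values without overlap or at an unadjusted p. Such counts in those fits are therefore not read as a result about the members. Replicate numbers were not established as pairs: correlations of deviations between libraries of one number were 0.187, -0.0961 and 0.292, and only numbers 1 and 3 correlated best with their own number. With the replicate block 4 members were higher and 4 lower, all among the 12, where 9.49% of all tested genes were called. How precise low values are cannot be given, for want of read numbers.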
